A study of Mus musculus with 2 samples.

Results

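The genes described here are 10 genes of basophils and mast cells. They were chosen by name as the rows of the deposited tables with the symbols Mcpt8, Prss34, Cpa3, Cma1, Tpsb2, Fcer1a, Ms4a2, Fcer1g, Hdc and Il1rl1. All 10 were present in both tables, among 23210 genes. The tables came from 2 RNA libraries of mouse bone marrow stem cells, both sorted as CD150+ Flt3- LSK cells (cells without lineage markers that carry Sca-1 and Kit) and separated on Satb1-Tomato, a fluorescent reporter of the chromatin organizer gene Satb1. One group was Satb1-Tomato (+), here SATB1-positive, and the other Satb1-Tomato (-), here SATB1-negative, with 1 library in each. The labels give no age, strain or number of pooled animals, and they do not list the antibodies of the lineage gate. The design asks how far each gene in SATB1-positive cells departs from its level in SATB1-negative cells. With 1 library per group the differences below have no replicate check, no p-value was computed, and they compare these libraries rather than the conditions.

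Basophils and mast cells arise from bone marrow progenitors and store histamine, proteoglycans and proteases in granules. Both bind IgE antibody through the high-affinity receptor FcεRI, which is built from an IgE-binding alpha chain, a signal-amplifying beta chain and a pair of gamma chains that signal through immunoreceptor tyrosine motifs. Antigen that crosslinks the bound IgE triggers release of the granules, and interleukin 33 (IL-33) acts on the same cells through its receptor ST2. In mice, Mcpt8 and Prss34 are used as basophil protease genes, whereas chymase and tryptase genes such as Cma1 and Tpsb2 mark connective tissue mast cells.

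Basophil protease genes, the alpha and beta chains of the IgE receptor and the histamine-forming enzyme were higher in the SATB1-positive library, by between 2.82-fold for Hdc and 5.54-fold for Fcer1a. The gamma chain gene Fcer1g was at 1.12-fold, and the mast cell genes Cma1 and Tpsb2 were under 1 FPKM in both libraries. In sorted populations measured in bulk, fewer cells of a type and less RNA per cell cannot be told apart. FPKM are fragments per kilobase of transcript, scaled to the total of mapped fragments, so levels of different genes can be compared per length. The log2 ratio used throughout is log2((SATB1-positive FPKM + 1)/(SATB1-negative FPKM + 1)). A gene passed the rule of size with a log2 ratio of 1 or more, or of -1 or less, and a value of 5 FPKM or more in its higher library. Of the 10 genes, 6 passed as higher (Mcpt8, Prss34, Cpa3, Fcer1a, Ms4a2 and Hdc) and 0 as lower. Over all 9308 genes that reached 5 FPKM in a library, 1.31% passed as higher and 0.688% as lower. Only 7 of the 10 reached that minimum, and Fcer1a and Ms4a2 reached it through the SATB1-positive library, so they could pass in that direction only. All 8 members with 1 FPKM or more had a log2 ratio above 0, as did 49% of the 11873 genes at that level, and all 8 reached 1 FPKM in both libraries. Their median log2 ratio was 1.79, beside -0.0059 over those 11873 genes.

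**Figure D1:**
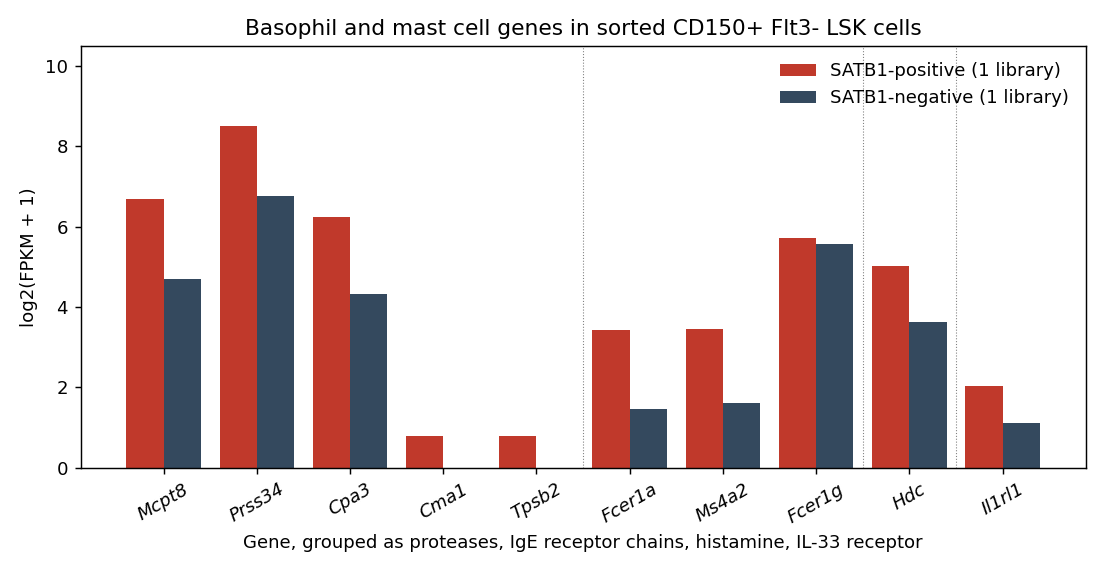
Level of each of the 10 genes as log2(FPKM + 1), with 1 library per bar, SATB1-positive in red and SATB1-negative in dark blue; there are no error bars because each group has 1 library. The red bar is taller by 0.93 to 2.01 for 7 genes and by 0.16 for Fcer1g, and it is the only visible bar for Cma1 and Tpsb2, which are listed at 0 in the SATB1-negative library.

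Promoter windows show what some of the members share in sequence beside their levels. RefSeq windows (build GRCm38.p6, 250 bases before to 50 after a start) were available for 9 of the 10 genes, with a pair of starts for Il1rl1; Tpsb2 had no entry. Both strands of each window were searched for GATAAG, and then for AGATAA, forms of the motif that GATA factors bind. These forms overlap where a GATAAG follows an A. AGATAA stood in 6 of the 10 windows (Prss34, Cpa3, Fcer1a, Ms4a2 and both of Il1rl1), beside 11.2% of 32851 windows in the table. GATAAG stood in 2 windows, of Ms4a2 and Il1rl1, beside 7.44% of all. The windows of Mcpt8, Cma1, Fcer1g and Hdc held neither form. Other forms of the GATA motif were not searched for, so these windows may still hold one. Windows of the 5 genes with a match and, for contrast, of Mcpt8 are printed 5′ to 3′ on the gene's strand, with both forms in capitals on either strand. Prss34 is at chr17:25298144-25298443 (plus strand), Cpa3 at chr3:20242132-20242431 (minus), Fcer1a at chr1:173227180-173227479 (minus), Ms4a2 at chr19:11623670-11623969 (minus), the upstream start of Il1rl1 at chr1:40429320-40429619 (plus) and Mcpt8 at chr14:56085148-56085447 (minus).
Prss34: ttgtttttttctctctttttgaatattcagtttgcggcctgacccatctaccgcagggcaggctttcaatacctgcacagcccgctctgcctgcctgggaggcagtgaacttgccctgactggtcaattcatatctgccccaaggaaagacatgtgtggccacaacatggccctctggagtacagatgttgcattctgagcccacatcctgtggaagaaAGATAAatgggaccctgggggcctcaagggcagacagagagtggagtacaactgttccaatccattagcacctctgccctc
Cpa3: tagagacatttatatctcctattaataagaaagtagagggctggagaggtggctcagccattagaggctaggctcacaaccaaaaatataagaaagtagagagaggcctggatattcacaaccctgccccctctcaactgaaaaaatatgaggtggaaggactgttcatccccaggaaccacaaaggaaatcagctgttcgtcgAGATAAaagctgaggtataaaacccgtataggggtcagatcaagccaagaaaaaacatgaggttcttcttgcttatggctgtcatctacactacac
Fcer1a: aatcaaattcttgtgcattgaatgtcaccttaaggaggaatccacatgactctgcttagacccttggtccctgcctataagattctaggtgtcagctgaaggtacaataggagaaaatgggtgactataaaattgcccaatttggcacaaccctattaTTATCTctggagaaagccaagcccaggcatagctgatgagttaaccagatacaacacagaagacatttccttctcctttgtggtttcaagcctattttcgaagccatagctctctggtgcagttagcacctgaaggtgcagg
Ms4a2: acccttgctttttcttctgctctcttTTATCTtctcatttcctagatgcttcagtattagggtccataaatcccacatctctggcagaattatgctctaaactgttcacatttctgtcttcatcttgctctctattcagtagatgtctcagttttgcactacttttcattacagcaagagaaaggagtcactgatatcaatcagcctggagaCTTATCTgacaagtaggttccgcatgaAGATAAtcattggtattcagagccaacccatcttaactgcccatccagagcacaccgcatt
Il1rl1: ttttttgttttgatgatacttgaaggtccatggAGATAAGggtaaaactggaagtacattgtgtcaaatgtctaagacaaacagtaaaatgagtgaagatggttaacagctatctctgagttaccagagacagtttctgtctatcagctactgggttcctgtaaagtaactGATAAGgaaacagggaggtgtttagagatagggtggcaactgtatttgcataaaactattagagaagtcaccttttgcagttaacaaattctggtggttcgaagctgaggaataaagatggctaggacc
Mcpt8: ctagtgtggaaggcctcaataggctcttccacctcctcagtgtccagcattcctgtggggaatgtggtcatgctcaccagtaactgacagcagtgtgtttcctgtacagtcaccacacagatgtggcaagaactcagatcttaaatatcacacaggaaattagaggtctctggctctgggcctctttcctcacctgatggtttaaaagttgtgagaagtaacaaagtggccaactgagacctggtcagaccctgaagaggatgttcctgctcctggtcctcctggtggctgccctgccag

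Counted from the start, with bases before it negative, the match began at -31 in Prss34 and -46 in Cpa3, close to the start, and at -92 in Fcer1a. Ms4a2 held AGATAA, on either strand, at -224, -37 and -11, and the upstream Il1rl1 window held it at -217 with a separate GATAAG at -79. Of the other motifs searched on both strands, the RUNX motif TGTGGT stood in 6 of the 10 windows, beside 16.8% of all windows. The PU.1 core GAGGAA stood in 3 of the 10, beside 28.3% of all, and the C/EBP motif TTGCNNAA in 2, beside 10.8%. The E-box CANNTG stood in 9 of the 10, beside 72.3% of all, and the STAT motif TTCNNNGAA in 0, beside 8.30%. A match describes the letters and does not show a binding site.

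Prss34, Mcpt8 and Cpa3 had the highest levels of the 10 genes in SATB1-positive cells, whereas in SATB1-negative cells Fcer1g stood between Prss34 and Mcpt8. Prss34 (ENSMUSG00000056399.2, chromosome 17, 25298394 to 25300165 of mm10, plus strand) encodes a basophil serine protease, mMCP-11. It was at 359.8 FPKM in SATB1-positive and 107 FPKM in SATB1-negative cells, a fold of 3.35 with a 95% interval of 3.23 to 3.48. Its level ranked 156th of 23210 genes in SATB1-positive and 799th in SATB1-negative cells. Such intervals cover counting error only. They rest on fragment numbers estimated from FPKM, transcript length and depth, for Prss34 about 9713 in SATB1-positive and 3812 in SATB1-negative cells, and PCR copies can make them too narrow. Mcpt8 (ENSMUSG00000022157.8, chromosome 14, 56082166 to 56085273, minus strand) encodes another basophil serine protease. It was at 103 FPKM in SATB1-positive and 24.8 FPKM in SATB1-negative cells, a fold of 4.16 (3.78 to 4.59). By level it ranked 845th in SATB1-positive and 4235th in SATB1-negative cells. Cpa3 (ENSMUSG00000001865.2, chromosome 3, 20215620 to 20242181, minus strand) encodes a metallocarboxypeptidase of mast cells and basophils. It was at 74.0 FPKM in SATB1-positive and 18.9 FPKM in SATB1-negative cells, a fold of 3.92 (3.62 to 4.24). All of these 3 genes were higher in the SATB1-positive library by more than their counting intervals.

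Cma1 and Tpsb2, the mast cell serine protease genes, stood far below these. Cma1 (ENSMUSG00000022225.7, chromosome 14, 55941451 to 55944675, minus strand), a chymase gene, was at 0.729 FPKM in SATB1-positive cells, about 17 fragments, and was listed at 0 in SATB1-negative cells. Tpsb2 (ENSMUSG00000033825.10, chromosome 17, 25366305 to 25369098, plus strand), a tryptase gene, was at 0.72 FPKM in SATB1-positive cells, also about 17 fragments, and was listed at 0 in SATB1-negative cells. At the estimated depth of the SATB1-negative library a count of 0 allows up to 3 fragments, or 0.0987 FPKM for Cma1 and 0.094 FPKM for Tpsb2. Neither gene reached 1 FPKM and no fold is given. In GENCODE transcripts, 5.46% of the 50-base words of Cma1 also occurred in Gm48934, so the assignment of its few fragments is uncertain. The shortest RefSeq-linked transcripts of the other 9 members shared no such word with another gene, and no member's exons overlapped those of another gene. Longer linked transcripts of Ms4a2 and Il1rl1 were not searched for shared words.

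The chains of the IgE receptor differed in their folds. Fcer1a (ENSMUSG00000005339.10, chromosome 1, 173221284 to 173227214, minus strand), the IgE-binding alpha chain, was at 9.70 FPKM in SATB1-positive and 1.75 FPKM in SATB1-negative cells, a fold of 5.54 (4.04 to 7.73). About 205 fragments in SATB1-positive and 49 in SATB1-negative cells lay behind these values. Ms4a2 (ENSMUSG00000024680.12, chromosome 19, 11615523 to 11623719, minus strand), the beta chain, was at 9.93 FPKM in SATB1-positive and 2.03 FPKM in SATB1-negative cells, a fold of 4.88 (3.26 to 7.51). By its shortest linked transcript these were about 117 fragments in SATB1-positive and 31 in SATB1-negative cells. Fcer1g (ENSMUSG00000058715.11, chromosome 1, 171229572 to 171234365, minus strand), the gamma chain, which other Fc receptors also use, was at 51.5 FPKM in SATB1-positive and 46.1 FPKM in SATB1-negative cells, a fold of 1.12 (1.004 to 1.24). Its log2 ratio of 0.16 failed the rule of size, and its interval overlapped that of none of the 7 other members with a fold. The levels of the alpha and beta chains were near each other, with Ms4a2 at 1.02 times Fcer1a in SATB1-positive and 1.16 times in SATB1-negative cells. Fcer1g exceeded Fcer1a by 5.31-fold in SATB1-positive and by 26.4-fold in SATB1-negative cells.

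Histamine and IL-33 receptor genes had folds under 3. Hdc (ENSMUSG00000027360.5, chromosome 2, 126593667 to 126619299, minus strand) encodes histidine decarboxylase, the enzyme that makes histamine. It was at 31.7 FPKM in SATB1-positive and 11.3 FPKM in SATB1-negative cells, a fold of 2.82 (2.60 to 3.06). Il1rl1 (ENSMUSG00000026069.15, chromosome 1, 40429570 to 40465415, plus strand) encodes ST2, the IL-33 receptor, in membrane-bound and soluble forms that a value per gene does not separate. It was at 3.10 FPKM in SATB1-positive and 1.15 FPKM in SATB1-negative cells, a fold of 2.70 (1.84 to 4.03) by its shortest linked transcript. It could not pass the rule because both values were under 5 FPKM, and its log2 ratio was 0.93.

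**Figure D2:**
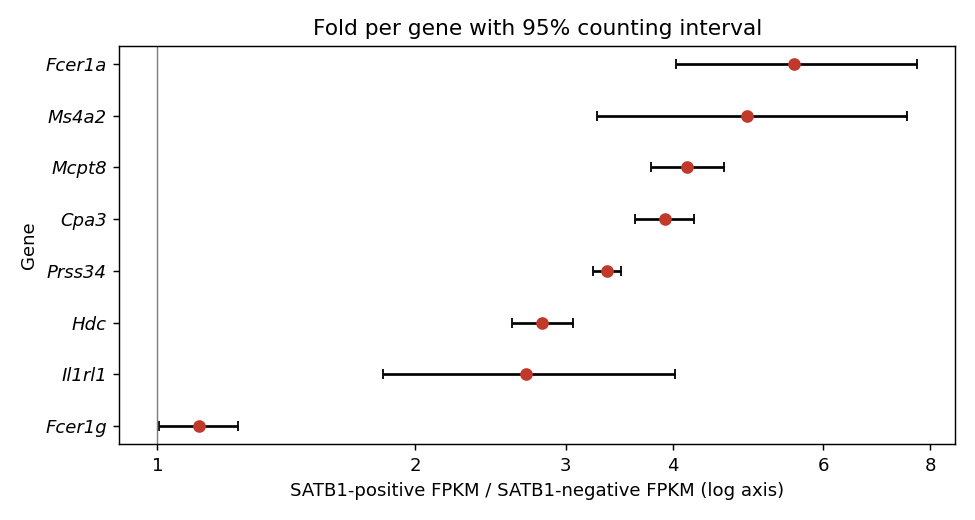
Fold of FPKM (SATB1-positive over SATB1-negative, log axis) for the 8 genes above 0 in both libraries, with the 95% counting interval as a bar; each point compares 1 library with 1 library. The folds run from 1.12 for Fcer1g to 5.54 for Fcer1a, and the bar of Prss34, from 3.23 to 3.48, is the narrowest.

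By log2 ratio, from high to low, Mcpt8 ranked 24th, Fcer1a 25th, Cpa3 28th, Ms4a2 31st, Prss34 41st and Hdc 69th of the 9308 genes that reached 5 FPKM, whereas Fcer1g ranked 2337th. The counting intervals of Mcpt8, Cpa3, Fcer1a and Ms4a2 overlapped one another. The interval of Prss34 lay below those of Mcpt8, Cpa3 and Fcer1a, and that of Hdc lay below those of all these 5 genes. Mcpt8 was at 0.286 times Prss34 in SATB1-positive and 0.231 times in SATB1-negative cells, and Hdc at 0.308 times Mcpt8 in SATB1-positive and 0.454 times in SATB1-negative cells. Summed over the 10 genes, 644 FPKM stood in the SATB1-positive and 213 FPKM in the SATB1-negative library, 3.02-fold more. Prss34 made up 55.8% of this sum in SATB1-positive and 50.3% in SATB1-negative cells, and Fcer1g 8.0% in SATB1-positive and 21.6% in SATB1-negative cells.

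**Figure D3:**
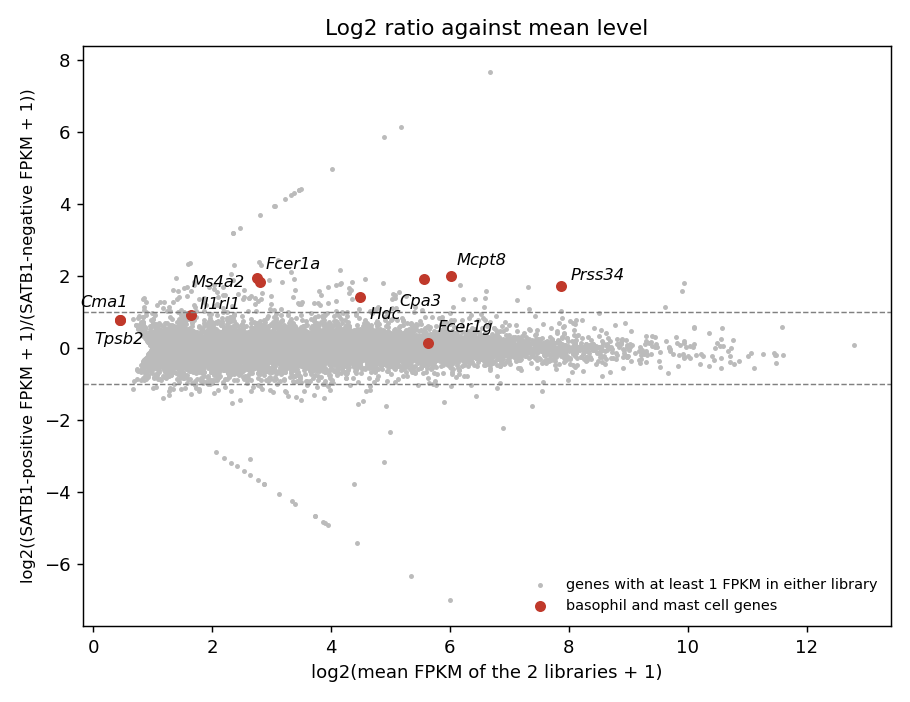
Log2 ratio (vertical axis) against log2 of the mean FPKM of both libraries plus 1 (horizontal axis), with grey points for genes of at least 1 FPKM in either library and red points for the 10 members; dashed lines mark log2 ratios of 1 and -1. Of the named points, 6 lie above the upper line, Fcer1g lies near 0, and Il1rl1, Cma1 and Tpsb2 lie just below the line at low levels.

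With 2 libraries, likeness to another gene is only closeness of the log2 ratio. Genes with symbols of the Gm or Rik type were left out of this comparison. Among 6630 other protein-coding genes with 10 FPKM or more in the higher library, those nearest to Mcpt8 (log2 ratio 2.01) were the chemokine genes Ccl5 (1.93) and Ccl9 (1.92), Cpa3 (1.91), the platelet chemokine gene Ppbp (1.91) and the T cell receptor component gene Cd3e (2.13). They differed from Mcpt8 by 0.081 to 0.113 on the log2 scale. Ccl5, Ccl9, Ppbp and Cd3e reached 10 FPKM only in the SATB1-positive library. Below that minimum, the member Fcer1a (1.96) and Gzmb (2.07) were nearer to Mcpt8 than any of these genes.

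Most other proteases of the same gene clusters were under 1 FPKM. Mcpt8 and Cma1 lie in the chymase cluster of chromosome 14, where 13 of 14 other listed protease genes were in the tables and 2 reached 1 FPKM, both passing as higher. These were Gzmb, granzyme B of cytotoxic lymphocytes, and Ctsg, cathepsin G of myeloid granules. Gzmb was at 7.07 FPKM in SATB1-positive and 0.926 FPKM in SATB1-negative cells, so the minimum level left it only that direction. Ctsg was at 111 FPKM in SATB1-positive and 31.9 FPKM in SATB1-negative cells. Mcpt4, Gzmg and Gzmn were listed at 0 in both libraries. In the tryptase cluster of chromosome 17, which holds Prss34 and Tpsb2, 1 of 10 other listed genes reached 1 FPKM. That gene, Prss32, was at 2.53 FPKM in SATB1-positive and 2.06 FPKM in SATB1-negative cells. The tryptase gene Tpsab1, picked with its values in view, was at 0.0421 FPKM, about 1 fragment, in SATB1-positive cells and was listed at 0 in SATB1-negative cells.

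Genes of the signalling machinery below the IgE receptor had log2 ratios nearer 0. All 23 listed genes reached 1 FPKM in both libraries, 0 passed the rule of size, 15 had a log2 ratio above 0, and the median was 0.11. Over all 9308 genes that reached 5 FPKM, 1.31% passed as higher and 0.688% as lower. In lists of this size, 0 passing is near that share. Of all 11873 genes with 1 FPKM or more, 49% were above 0. Ptpn6, the phosphatase SHP-1 that restrains such pathways, had the highest mean level, at 108 FPKM in SATB1-positive and 118 FPKM in SATB1-negative cells. The genes Syk, Lyn and Lat2 were picked with their values in view. Syk, the kinase that docks on the gamma chain, was at 41.0 FPKM in SATB1-positive and 37.4 FPKM in SATB1-negative cells. Lyn, the kinase that phosphorylates the receptor, was at 33.9 FPKM in SATB1-positive and 33.7 FPKM in SATB1-negative cells. Lat2, an adaptor of mast cells and B cells, was at 27.4 FPKM in SATB1-positive and 13.3 FPKM in SATB1-negative cells, a log2 ratio of 0.99, just under the threshold. Among 14 other Fc receptor genes and gamma chain partners, 8 reached 1 FPKM and 0 passed, with a median of 0.51. Tyrobp, a signalling adaptor like the gamma chain, was at 45.7 FPKM in SATB1-positive and 31.8 FPKM in SATB1-negative cells. Fcgr3, an IgG receptor that uses the gamma chain and was likewise picked with its values in view, was at 23.5 FPKM in SATB1-positive and 16.2 FPKM in SATB1-negative cells.

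Of 9 genes that store, move, sense or break down histamine, 6 reached 1 FPKM, 0 passed, and the median log2 ratio was -0.025. For this list and those below, 0 passing is near the share over all 9308 genes that reached 5 FPKM. That share was 1.31% as higher and 0.688% as lower. Srgn, serglycin, the core protein of the granule proteoglycan, was at 1012 FPKM in SATB1-positive and 993 FPKM in SATB1-negative cells. Slc18a2, the vesicular transporter that loads histamine into granules, picked with its values in view, was at 67.7 FPKM in SATB1-positive and 82.9 FPKM in SATB1-negative cells. Of 12 partners and signalling genes of the IL-33 receptor, 11 reached 1 FPKM, 0 passed, and the median was 0.040. Irak1, a kinase downstream of MyD88, was at 71.4 FPKM in SATB1-positive and 75.5 FPKM in SATB1-negative cells. Among receptors for the IL-3 family, IL-4, IL-9, thymic stromal lymphopoietin and stem cell factor, 8 of 9 reached 1 FPKM and 0 passed, with a median of 0.30. Kit, the stem cell factor receptor on which the cells were sorted, was at 286 FPKM in SATB1-positive and 318 FPKM in SATB1-negative cells. Csf2rb, the common beta chain for IL-3, IL-5 and GM-CSF, picked with its values in view, was at 15.8 FPKM in SATB1-positive and 7.48 FPKM in SATB1-negative cells, a log2 ratio of 0.99.

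Of 11 lipid mediator genes, 10 reached 1 FPKM and 1 passed as higher, with a median log2 ratio of 0.089. Over all 9308 genes that reached 5 FPKM, 1.31% passed as higher. That minimum was reached by 7 of the lipid mediator genes. It was also reached by 15 transcription factor genes and 12 surface, granule and cytokine genes of the lists below. That gene was Alox5, the 5-lipoxygenase that starts leukotriene synthesis, at 9.67 FPKM in SATB1-positive and 4.01 FPKM in SATB1-negative cells; only the SATB1-positive value reached 5 FPKM. Of 16 transcription factor genes of basophil and mast cell development, all reached 1 FPKM, 1 passed as higher, and the median was 0.15. Cebpa, a myeloid factor that favours basophils over mast cells in mice, was the gene that passed, at 7.23 FPKM in SATB1-positive and 2.18 FPKM in SATB1-negative cells; it too reached 5 FPKM only in SATB1-positive cells. Genes of factors that bind the GATA motif searched above were picked with their values in view. Gata2 was at 137 FPKM in SATB1-positive and 153 FPKM in SATB1-negative cells, and Gata1 at 44.0 FPKM in SATB1-positive and 33.0 FPKM in SATB1-negative cells. Of 18 surface, granule and cytokine genes, 14 reached 1 FPKM and 4 passed as higher, with a median of 0.82. Rab44, a large Rab GTPase that takes part in mast cell degranulation, was at 30.8 FPKM in SATB1-positive and 7.90 FPKM in SATB1-negative cells. The chemokine gene Ccl3 was at 52.0 FPKM in SATB1-positive and 16.9 FPKM in SATB1-negative cells. The remaining passing genes were Cd69, an activation antigen of leukocytes, and the cytokine gene Il6, both picked with their values in view; Il6 reached 5 FPKM only in SATB1-positive cells.

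Markers of some other cell types were also higher in the SATB1-positive library, and their part in the result was not tested. Over all 9308 genes that reached 5 FPKM, 1.31% passed as higher. In the list of granulocyte-monocyte progenitor granule genes, 7 of 8 passed as higher, led by Cst7 (log2 ratio 1.81) and Mpo (1.80). Their summed level was 3606 FPKM in SATB1-positive and 1399 FPKM in SATB1-negative cells. In the T and NK cell list, 6 of 11 passed as higher, led by Il2rb (2.44) and Cd3e (2.13), with sums of 95.8 FPKM in SATB1-positive and 26.6 FPKM in SATB1-negative cells; 4 of the 11 reached 1 FPKM in 1 library only. All of these 6 except Lck met the 5 FPKM minimum through the SATB1-positive library alone, so they could pass in that direction only. No other gene of the T and NK cell list reached 5 FPKM, so the rest could not pass. Of 9 measured eosinophil genes, 2 passed as higher, Ear6 (1.07) and Siglec5, the tables' symbol for Siglecf (1.03, at 5 FPKM or more in SATB1-positive cells alone), with sums of 2241 FPKM in SATB1-positive and 1481 FPKM in SATB1-negative cells. All 9 of these eosinophil genes had a log2 ratio above 0, with a median of 0.71. Monocyte and dendritic cell genes, of which Lyz2 was the most abundant, had 0 of 7 measured past the rule. Their sums were 843 FPKM in SATB1-positive and 675 FPKM in SATB1-negative cells. Still, 6 of the 7 had a log2 ratio above 0, and their median was 0.69. Among all 11873 genes with 1 FPKM or more, 49% were above 0. Mature neutrophil genes, led in level by Ngp, had 0 of 11 past the rule and sums of 647 FPKM in SATB1-positive and 765 FPKM in SATB1-negative cells; 4 of the 11 had a log2 ratio above 0 and the median was -0.099. None of these 5 lists had a member at 0 in either library.

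Stem cell markers were present in both libraries, with sums of 576 FPKM in SATB1-positive and 843 FPKM in SATB1-negative cells. Of 11 such genes, 0 had a log2 ratio above 0 and 0 passed as lower, and the median was -0.53. Over all 11873 genes with 1 FPKM or more, 49% had a log2 ratio above 0. Only 0.688% of the 9308 genes that reached 5 FPKM passed as lower, so 0 passing is near that share. Hoxb5, picked with its values in view, had a log2 ratio of -1.19 but could not pass. It was at 1.08 FPKM in SATB1-positive and 3.74 FPKM in SATB1-negative cells, under 5 FPKM in both. Satb1 itself, the check of the sort, was at 8.26 FPKM in SATB1-positive and 2.37 FPKM in SATB1-negative cells. Of 8 listed basophil markers, the 6 that passed as higher were all among the 10 genes. The other two, Cd200r3 and Il4, were picked with their values in view. Cd200r3, a surface receptor of basophils, was at 3.01 FPKM in SATB1-positive and 1.05 FPKM in SATB1-negative cells. The cytokine gene Il4 was at 1.78 FPKM in SATB1-positive and 2.30 FPKM in SATB1-negative cells. Of 8 listed mast cell markers, only Cpa3 and Mitf reached 1 FPKM, and Mcpt4 and Mrgprb2 were listed at 0 in both libraries. Against the mast cell name in the label, the members at 1 FPKM or more, apart from Fcer1g, were genes of basophils or of both cell types. Fcer1g is not particular to these cells, since other Fc receptors also use the gamma chain. The mast cell protease genes Cma1 and Tpsb2 were below 1 FPKM.

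**Figure D4:**
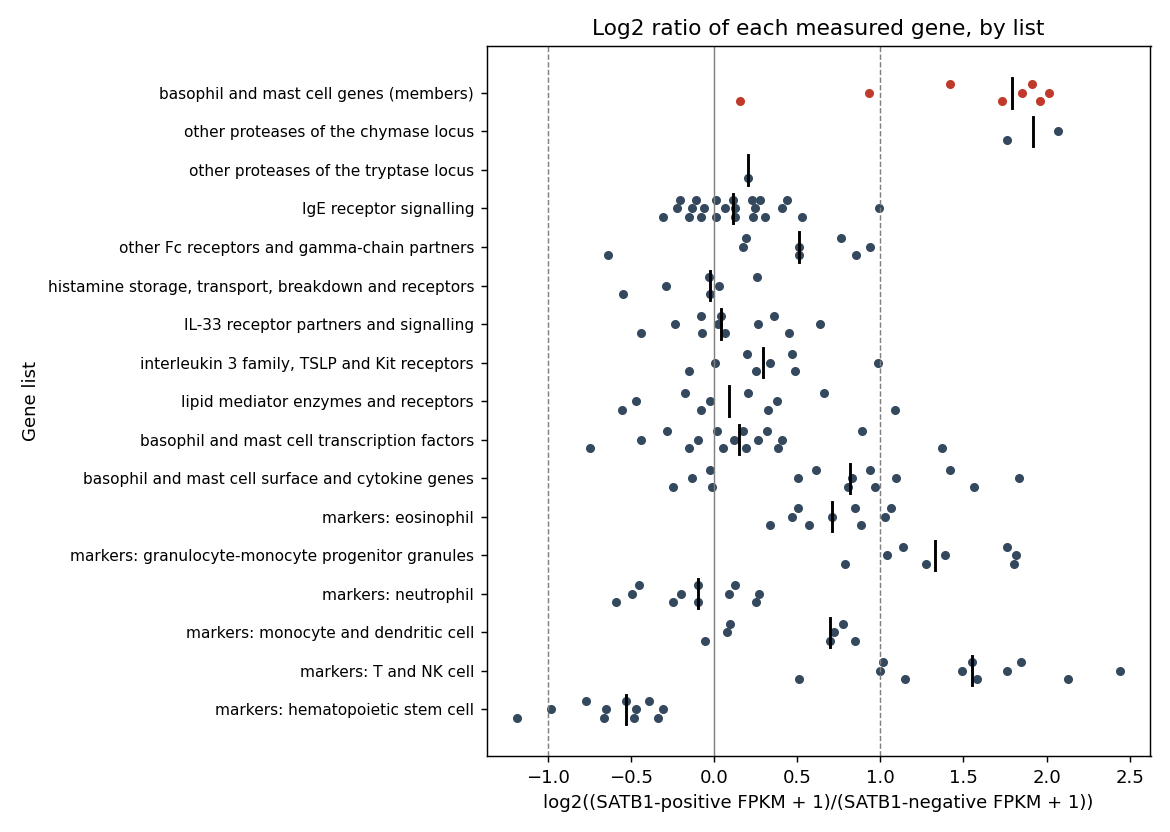
Log2 ratio of each gene with at least 1 FPKM in either library, 1 point per gene, by list; the black bar is the list's median and the dashed lines mark log2 ratios of 1 and -1. The 8 measured members (red) have a median of 1.79, beside 0.11 for IgE receptor signalling genes, 1.33 for progenitor granule genes and -0.53 for stem cell genes.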

How the data were processed

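Total RNA had been extracted with the miRNeasy kit and sequenced from SMARTer Stranded libraries, per the labels' protocols. The authors deposited FPKM for each gene symbol (file headers). Per the submitters' processing notes, the tools were TopHat2 2.0.13 and Bowtie2 2.2.3 as well as SAMtools 0.1.19 and Cufflinks 2.2.1, with build mm10. Annotation and strand setting are not given in the sources used for this report, so reads of a gene and an antisense partner may not be separated. In each file 25 rows whose symbols had become dates were left out (0.172% of FPKM in the SATB1-positive and 0.161% in the SATB1-negative library).

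The files hold FPKM without counts. Single-exon genes with RefSeq lengths gave the depth, since their low values step by 1 fragment. Depths of 26600000 fragments for the SATB1-positive and 34960000 for the SATB1-negative library, with 205 bases taken off each transcript for fragment length, brought 89.6% of 201 SATB1-positive values and 91.1% of 168 SATB1-negative values within 0.05 of a whole number; both settings were searched for to maximise these shares. Per kilobase, 1 fragment was worth 0.0376 FPKM in the SATB1-positive and 0.0286 FPKM in the SATB1-negative library. Fragments per gene used the shortest RefSeq-linked GENCODE M21 transcript, and folds carry exact Clopper-Pearson 95% intervals of the fragment split. Coordinates are from GENCODE M21 (GRCm38, the mm10 assembly).

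The pseudocount was 1 FPKM, and genes under 1 FPKM in both libraries were not measured. Members and lists were chosen with earlier results of these data known. Apart from the members, up to 2 genes with the highest and 2 with the lowest log2 ratios past the rule were named per list, or else the most abundant gene, as were the 5 genes nearest to Mcpt8; 1 gene due by this rule is not reported here. Listed symbols absent from the tables were matched through RefSeq synonyms. Alternatives were other pseudocounts, scalings, minimum levels and a 4-fold threshold. Comparisons of protein sequence were not made. Python 3.11.15 with pandas 2.3.3 and SciPy 1.17.1 was used.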

Additional observations from a re-analysis of the deposited data

How the results depend on the processing

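The count of members higher in the SATB1-positive library, 6 of 10, was also 6 with pseudocounts of 0.1 and 5, after scaling by the median ratio or the upper quartile, and with a minimum of 1 FPKM or none. It was 7, with Il1rl1 added, after scaling both libraries to the same sum (TPM), where its higher value was 6.24 and its log2 ratio 1.13, since all values are larger beside the pseudocount and the minimum. It was 4 with a minimum of 10 FPKM and 1 (Mcpt8) with a 4-fold threshold at a pseudocount of 1; Fcer1a and Ms4a2 also exceed 4-fold in FPKM without a pseudocount. No member was counted as lower under these settings. Members with a log2 ratio above 0 were 8 of 8 as reported and 10 of 10 with no minimum or on the sum scale. Cma1 and Tpsb2, which make up the difference, were listed at 0 in the SATB1-negative library, so their log2 ratios could not be below 0. No member changed sign under these pseudocounts and scalings. The scalings shifted the log2 ratio of FPKM without a pseudocount by at most 0.0054; with the pseudocount, scaling to the same sum gave 2.18 for Fcer1a, 2.05 for Ms4a2 and 2.04 for Mcpt8. Mcpt8 had the highest log2 ratio of the members with 1 FPKM or more as reported, but Fcer1a and Ms4a2 exceeded it on the sum scale, and also, at 2.40 and 2.23 against 2.05, with a pseudocount of 0.1. With a pseudocount of 5, the log2 ratios of Fcer1a and Ms4a2 were 1.12 and 1.09. No paired analysis was possible because each group has 1 library, and for the same reason no replicate could be left out. Depth limits Cma1 and Tpsb2, at about 17 fragments each in the SATB1-positive library. It also limits Ms4a2, Il1rl1 and Fcer1a, at about 31, 41 and 49 fragments in the SATB1-negative library by the shortest linked transcript. The longest linked transcripts would give 155 for Ms4a2 and 205 for Il1rl1 in that library.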

Other observations

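The neighbours of the members on their chromosomes were looked at after the members' values were known. The 3 nearest protein-coding genes on each side of each member gave 55 other genes, of which 23 reached 5 FPKM. Of these 23, 3 passed the rule of size as higher in the SATB1-positive library, beside 1.31% of all 9308 genes that reached 5 FPKM. The 3 neighbours were Ctsg, next to Mcpt8, Ms4a3, next to Ms4a2, and Atp8b4, which lies 2 genes from Hdc. Ctsg and Ms4a3 were also counted above in the progenitor granule list. Ms4a3, a gene of granulocyte-monocyte progenitors, was at 139 FPKM in SATB1-positive and 52.5 FPKM in SATB1-negative cells. Atp8b4, a phospholipid flippase gene, was at 28.3 FPKM in SATB1-positive and 9.13 FPKM in SATB1-negative cells. Of all 11873 genes with 1 FPKM or more, 49% had a log2 ratio above 0 and the median was -0.0059. Over the 29 neighbours that reached 1 FPKM, 19 had a log2 ratio above 0 and the median was 0.12. The 4 interleukin 1 and interleukin 18 receptor genes around Il1rl1 in that set whose log2 ratios were above 0 (Il1r1, Il1rl2, Il18r1 and Il18rap) ranged from 0.26 to 0.64, below the 0.93 of Il1rl1, while Il1r2 was at -0.22.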
